A study of Drosophila melanogaster with 16 samples.

Results

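The genes described here are the translation initiation factors of Drosophila melanogaster, taken as the rows of the deposited expression table whose gene symbol starts with eIF. The table holds 29 such rows among 16727. They name the cap-binding eIF4E family, the scaffold eIF4G and its paralogue eIF4G2, the helicases eIF-4a and eIF4AIII, eIF-4B, the 3 subunits of eIF2, the 5 subunits of its exchange factor eIF2B, eIF-1A, eIF5, 5 subunits of eIF3, eIF5B, eIF6 and eIF-5A. Of the 29 genes 24 averaged 10 normalised counts or more across all 16 libraries and were tested, and the other 5 (eIF4E-3, eIF4E-4, eIF4E-5, eIF4E-6 and eIF4E-7) are given by their reads. A further 17 genes whose present RefSeq symbol starts with eIF stand in the table under older names, such as Int6, Trip1, Adam and Tango7. They are not among the 29, and 13 of them passed the same minimum.

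Initiation brings a ribosome to the start codon of an mRNA. eIF4E binds the cap, eIF4G bridges it to the helicase eIF4A, and eIF3 links this assembly to the small ribosomal subunit. That subunit carries eIF1A, eIF5 and the ternary complex of eIF2, GTP and initiator tRNA. eIF5 triggers hydrolysis of the GTP, eIF2B reloads eIF2, and eIF5B brings in the large subunit, which eIF6 keeps free until then. The larval fat body is a storage and secretory organ that makes large amounts of serum protein, and the ovary at this age holds dividing germ cells and somatic cells that build the niche.

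RNA came from female larvae at the LL3/P0 transition, when the last larval stage turns into the prepupa, as fat body alone or as fat body with its ovaries. One genotype was dLmx1a delta1 over the balancer TM3-GFP, called heterozygous below, and the other was selected as lacking that balancer and titled homozygous. Each of the 4 combinations had 4 libraries. The genotype field of the libraries titled homozygous counts up the second allele from delta1 to delta8, so they are called the libraries labelled homozygous. All animals came from 1 balanced knock-out stock, so every group carries delta1. The balancer is present in heterozygotes and absent from the others, and its effects cannot be told apart from those of delta1. The series asks what differs between these genotypes in the developing ovary.

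Between 19022106 and 32755588 reads were counted on genes in a library. CG32105, the gene of dLmx1a, had 518 to 723 normalised counts in heterozygous fat body with ovaries and 564 to 742 in the same tissue labelled homozygous. In fat body alone it had 0 to 23.5 and 0 to 4.59, with 23.5 in heterozygous replicate 2. The counts cover the whole gene and do not check the labels. The eye colour gene w separated the genotypes, at 41.5 to 99.2 in heterozygous fat body and 94.5 to 202 with ovaries, against 0 to 3.06 and 0 to 2.34 in the libraries labelled homozygous. The 6 storage genes Fbp1, Fbp2, Lsp1alpha, Lsp1beta, Lsp1gamma and Lsp2 took 49.7% to 58.7% of a library. Summed germline markers (13 genes) went from 8469 to 10169 in heterozygous fat body to 10403 to 11564 with ovaries, and from 7327 to 9201 to 9023 to 9973 in the libraries labelled homozygous, where 12 of the 13 were called higher and 1 lower in each genotype, with median log2 folds of 4.96 and 5.71. Summed markers of ovarian somatic cells (10 genes, 0 of them without a read in any group) went from 95.6 to 243 in heterozygous fat body to 3033 to 4272 with ovaries, and from 81.3 to 129 to 3364 to 4518 in the libraries labelled homozygous. Summed cell cycle markers (10 genes) went from 152 to 391 to 4037 to 6158 and from 104 to 624 to 5099 to 6242. The sum of 7 hemocyte markers was higher with ovaries too, at 2688 to 2876 against 1581 to 1844 and at 3038 to 3434 against 1354 to 1649. Ppn and Pxn alone were called higher, in both genotypes, and only 2 of the 7 folds in heterozygotes and 4 of 7 in the libraries labelled homozygous were above 0, with crq called lower in heterozygotes. Which of these cells a change with ovaries belongs to was not tested, and in bulk RNA fewer cells of a type and less RNA per cell cannot be told apart. The labels do not say whether replicates are separate groups of animals, and p-values cover the spread among the libraries alone, which may be technical.

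The factors differed widely in level. Per kilobase of exons, eIF-5A stood highest at 23320.1 normalised counts over the 16 libraries, and eIF4G2 stood lowest of the 24 at 68.9. eIF-5A, named as an initiation factor, is now known to help elongating ribosomes and carries the symbol eEF5 in RefSeq. The helicase eIF-4a followed at 8105 per kilobase, far above eIF4AIII at 384, the paralogue that sits in the exon junction complex laid down at splicing. The subunits of eIF3 lay close together, at 1153 for eIF3-S10 (eIF3a), 1531 for eIF-3p66 (eIF3d1), 1559 for eIF3-S8 (eIF3c), 2059.9 for eIF-3p40 (eIF3h) and 2681 for eIF3-S9 (eIF3b). With the eIF3 subunits that stand under other names, 13 genes of this complex spanned a 2.32-fold range per kilobase. The subunits of eIF2 spread more widely, with eIF-2beta at 3199, eIF-2alpha at 860.5 and eIF-2gamma at 624. All 5 subunits of eIF2B were lower than any of these, from 141 for the catalytic subunit gene eIF2B-epsilon to 463 for eIF2B-beta. The cap-binding protein gene eIF-4E (1586) and the scaffold gene eIF4G (1569) had almost the same level per kilobase. This last difference is smaller than the spread between libraries, and no test was made between genes. Summed over all 29 genes, the eIF rows held 0.309% to 0.452% of a library's normalised counts.

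**Figure D1:**
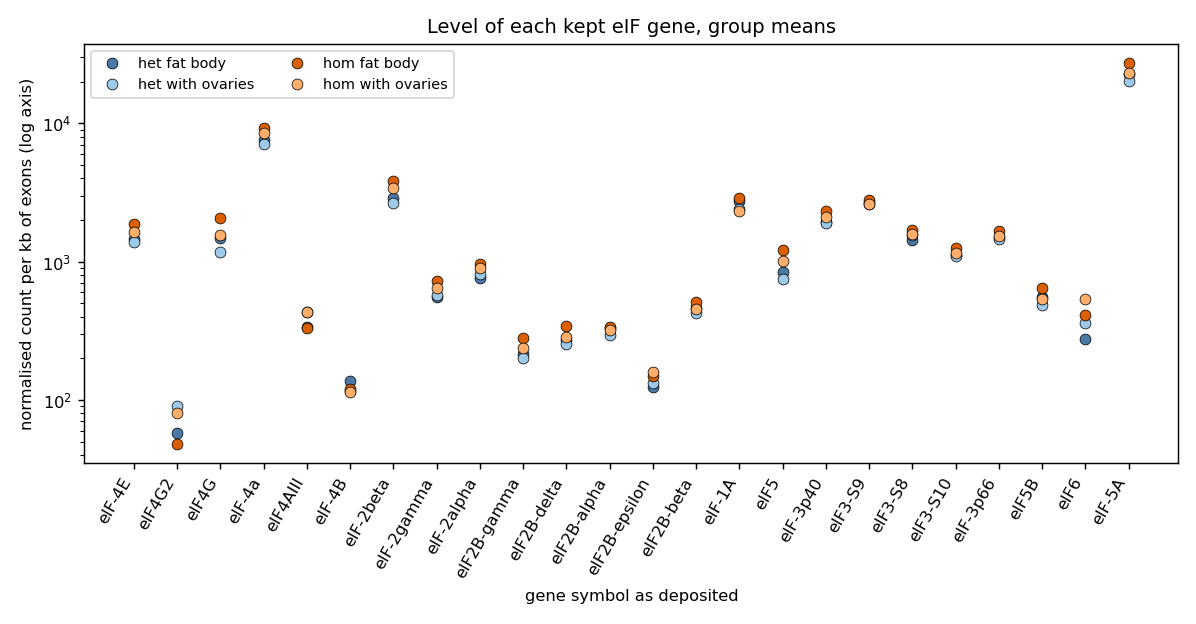
Mean normalised count per kilobase of exons of the 24 kept eIF genes (logarithmic axis), with 1 point per group of 4 libraries and the genes ordered by complex. eIF-5A and eIF-4a stand at the top, eIF4G2 and eIF-4B (122 over all libraries) at the bottom, and the 4 groups lie close together for each gene.

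The comparison of fat body with and without ovaries within a genotype asks which transcripts the ovary adds. Few initiation factors differed. In heterozygotes limma called 2 of the 24 higher and 1 lower with ovaries, where 18.6% of all 7824 genes tested were higher and 10.7% lower. For libraries labelled homozygous it called 2 higher and 3 lower, against 19.8% and 13.2% of all genes. The members' share called is at or below that of all genes in both directions, and their median log2 fold of -0.06 and -0.11 lay near the -0.05 of all genes in each genotype. The genes higher in both genotypes were eIF4G2 and eIF4AIII, and the one lower in both was eIF-1A.

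eIF4G2 (arm 3R, 23808285 to 23819237 of dm6) encodes a variant of the eIF4G scaffold that male germ cells of Drosophila need for meiosis. In heterozygous fat body it had 461, 546, 537 and 544 normalised counts, and with ovaries 769, 762, 907 and 828. In the libraries labelled homozygous it had 353, 448, 447 and 505 in fat body and 545, 729.8, 891 and 759.5 with ovaries. Every library with ovaries stood above every fat body library of its genotype, and replicate 1 was the lowest fat body library in both. The log2 fold was 0.64 ± 0.14 in heterozygotes (SE, n = 4 per group, limma adjusted p = 0.00261) and 0.73 ± 0.14 in the libraries labelled homozygous (adjusted p = 0.000899). Of its exon bases 8.56% are shared with CG33111 on the same strand, where reads could be split or dropped.

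eIF4AIII (arm 3R, 8313208 to 8314864) was also higher with ovaries in both genotypes, by less. It had 519, 509, 451 and 514 in heterozygous fat body and 611, 614, 727 and 626 with ovaries. Those labelled homozygous had 525, 459, 512 and 467 and 649, 645, 661 and 610.4. The tissues did not overlap in either genotype. The log2 folds were 0.37 ± 0.08 (adjusted p = 0.00232) and 0.39 ± 0.08 (adjusted p = 0.00143). The cytoplasmic helicase gene eIF-4a, gave -0.07 and -0.11, neither past the threshold, at 18662 ± 2271 and 17708 ± 867 in heterozygotes (SD, n = 4).

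eIF-1A (arm 3R, 18274665 to 18283005), which keeps the small subunit open for scanning, was lower with ovaries in both genotypes. It had 4771, 4485, 4591 and 4977 in heterozygous fat body and 4242, 4198, 3930.2 and 4049 with ovaries. Among those labelled homozygous the counts were 5357, 4750.4, 4836 and 4774 and 4209, 4249, 3901 and 3750.5. All libraries with ovaries lay below all fat body libraries of their genotype. The log2 folds were -0.20 ± 0.07 (adjusted p = 0.0423) and -0.29 ± 0.07 (adjusted p = 0.00427) in the deposited scaling, and turned to 0.19 and 0.14 when each library was scaled to the same total. Fat body markers were lower with ovaries as well, with 0 of 12 folds above 0 in either genotype, medians of -0.47 and -0.52, and 3 and 4 called lower. The 6 storage genes took 52.9% to 57.0% of heterozygous fat body and 49.7% to 51.0% with ovaries, and 55.6% to 58.7% and 51.3% to 54.2% in the libraries labelled homozygous. Their part in the lower values of eIF-1A, and of eIF4G and eIF5B described next, was not tested. The heterozygous call of eIF-1A was lost under 12 of the 28 other settings, TMM scaling and edgeR among them. It was reversed under 1 more, equal totals, where limma called eIF-1A higher with ovaries (adjusted p = 0.0457).

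The scaffold gene eIF4G (chromosome 4, 915297 to 930715) and the subunit joining GTPase gene eIF5B (arm 3L, 3428658 to 3460977) passed the threshold in the libraries labelled homozygous. eIF4G had 17906, 11654, 12453 and 12019.8 in that fat body and 11129.8, 9042, 10504 and 9946 with ovaries, a log2 fold of -0.39 ± 0.13 (adjusted p = 0.0288). In heterozygotes it had 11158, 9491, 9465 and 9028 and 8502, 7303, 7228 and 7946, a log2 fold of -0.34 ± 0.13 (adjusted p = 0.0610). The tissues did not overlap in either genotype, and fat body replicate 1 labelled homozygous lay far above the rest. Without that library the fold labelled homozygous was -0.25 (adjusted p = 0.0509). eIF5B had 3243, 2679, 2841 and 2687 and 2562, 2370.3, 2269 and 2269 in the libraries labelled homozygous (-0.27 ± 0.08, adjusted p = 0.0121). In heterozygotes it had 2606, 2403, 2343 and 2489 and 2231, 2180.3, 2009.5 and 2155 (-0.20 ± 0.08, adjusted p = 0.0600). A difference between genotypes in these folds was not shown, since the interaction had an adjusted p that rounds to 1 for both. At equal totals the folds labelled homozygous turned to 0.04 for eIF4G and 0.16 for eIF5B.

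**Figure D2:**
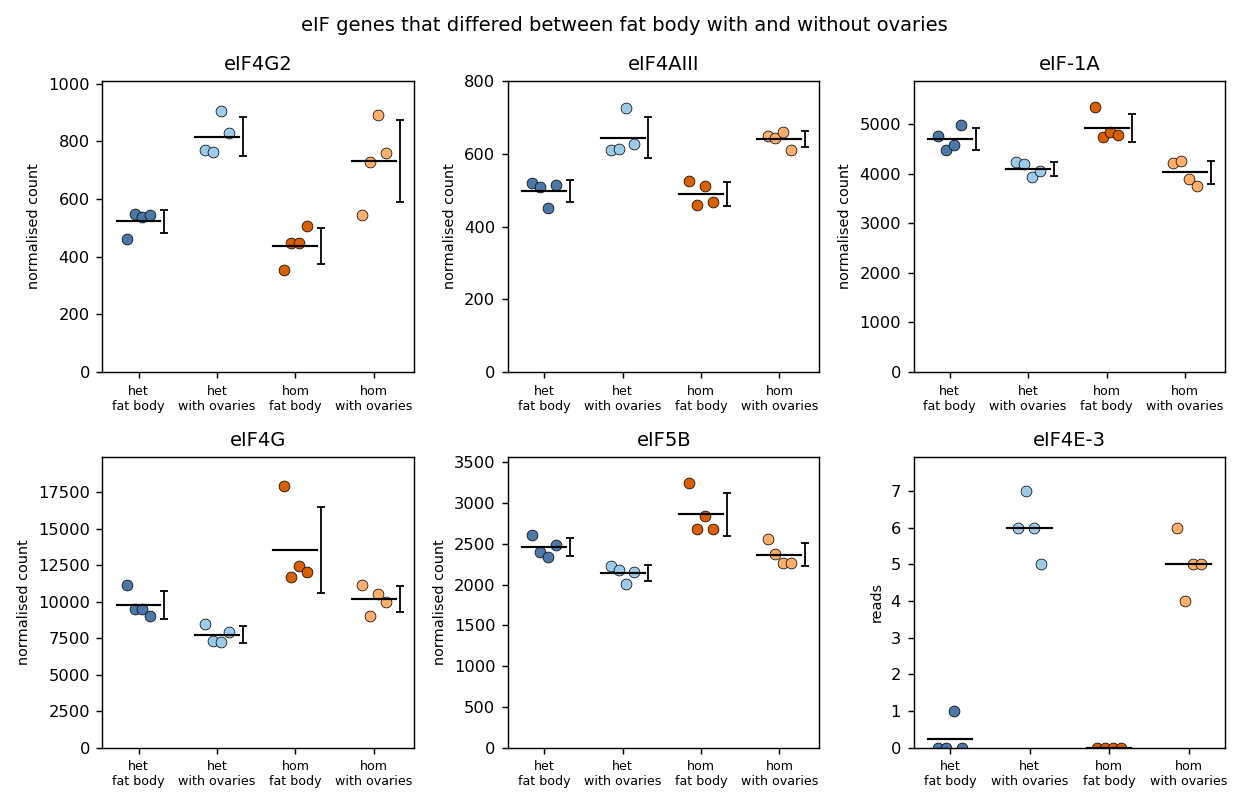
Normalised counts of 5 eIF genes and reads of eIF4E-3 in each library, by group; points are libraries in order of replicate number, the bar is the mean and the whisker beside it the SD (no whisker for reads). eIF4G2, eIF4AIII and eIF4E-3 are higher in libraries with ovaries in both genotypes, and eIF-1A, eIF4G and eIF5B are lower in the deposited scaling, a direction that turns at equal totals.

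The choice of scaling moves all of these folds together. Scaling each library to the same total took the all-gene median log2 fold, -0.05 in the deposited scaling, to 0.34 in heterozygotes and to 0.37 in the libraries labelled homozygous. With it 13 of the 24 members were called higher and 0 lower by limma in each genotype, where 43.9% and 46.4% of all genes were called higher. The members' medians were then 0.33 and 0.32. Relative to the median of all genes eIF4G2 and eIF4AIII were higher and eIF-1A, eIF4G and eIF5B lower under both scalings. Scaling moves all genes of a library alike, so this order could hardly differ between them and is no further evidence. With the replicate number as a block, 3 members were higher in heterozygotes (23.5% of all genes) and 3 lower, eIF-1A, eIF4G and eIF5B (21.7%). Among libraries labelled homozygous 3 were higher (24.2%) and 7 lower (23.9%). The third higher gene was eIF6 in both (adjusted p = 0.0333 and 0.0471 with the block). The 7 lower ones were eIF-1A, eIF4G, eIF5B, eIF-5A, eIF5, eIF2B-beta and eIF2B-delta. eIF-5A had 21748, 22611, 24219 and 19448 in the fat body labelled homozygous and 18203, 21359.9, 18117 and 17015 with ovaries. eIF2B-beta had 774, 694, 658 and 649 and 602, 649.6, 619 and 579, and eIF2B-delta 593, 643, 541 and 699 with ovaries. The tissues overlapped for these 3 genes, which were lower with ovaries in 4 of 4 pairs. Equal numbers pair the libraries labelled homozygous but not the heterozygous ones, by their correlations.

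The remaining members gave folds between -0.25 (eIF-4B, a helper of the helicase) and 0.46 (eIF6) in heterozygotes. Between those labelled homozygous they gave -0.26 (eIF2B-delta) to 0.42 (eIF6). The subunits of eIF3 stayed within -0.04 to 0.12 in heterozygotes and within -0.13 to -0.08 in the libraries labelled homozygous, with 0 of the 5 called. Those of eIF2 lay between -0.12 and 0.12 and between -0.15 and -0.07, also with 0 called. A p that misses the threshold does not show that these levels are equal.

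**Figure D3:**
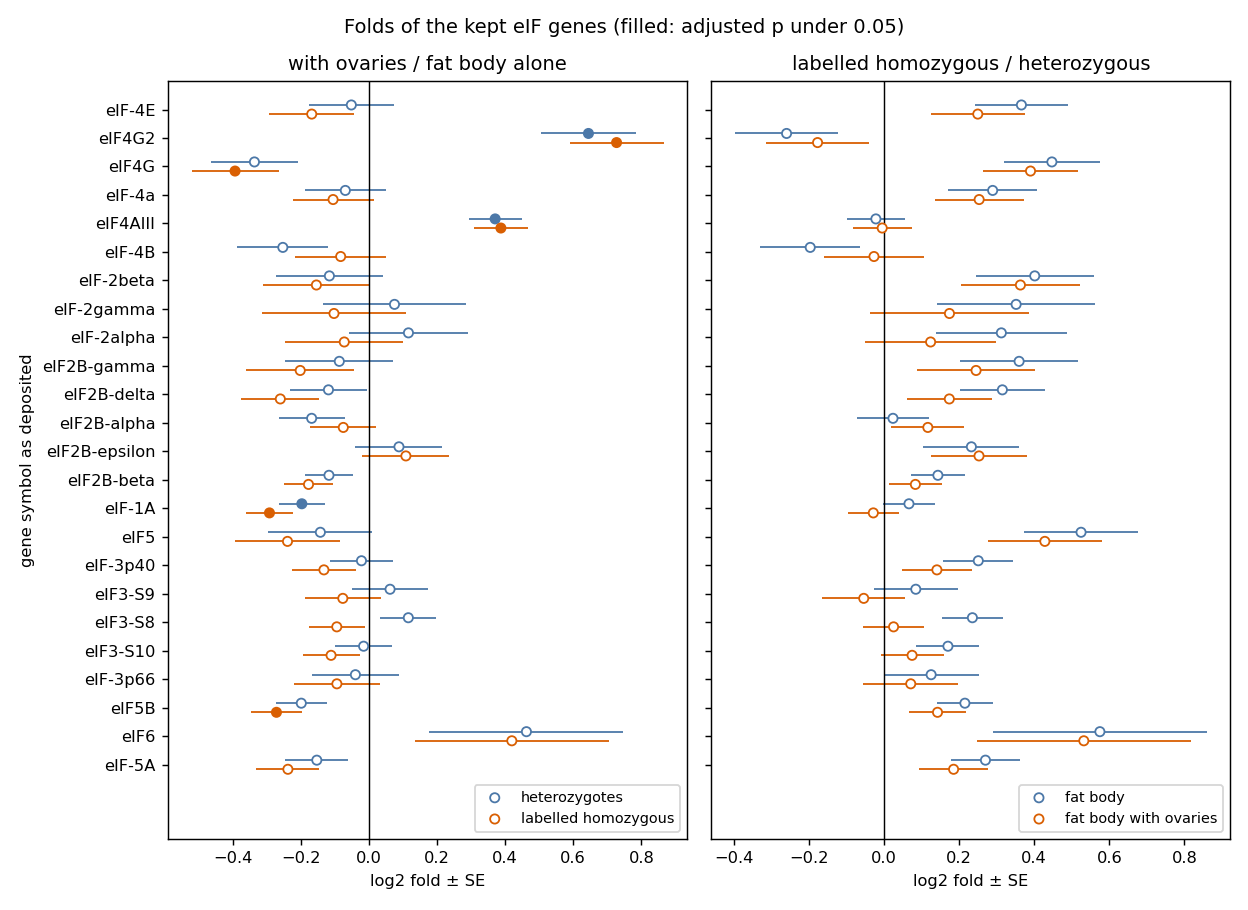
Log2 folds with their SE (limma, 16 libraries, 4 per group) of the 24 kept eIF genes; left, fat body with ovaries over fat body alone in each genotype, and right, libraries labelled homozygous over heterozygous ones in each tissue. Filled points passed an adjusted p of 0.05. On the left eIF4G2 and eIF4AIII stand apart to the right, and on the right 21 points for fat body and 19 for fat body with ovaries lie above 0, none of them filled.

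Among the rows whose symbol starts with eIF, the eIF4E family held 1 abundant member and 5 that were barely read. eIF-4E, the general cap-binding protein gene (eIF4E1 in RefSeq), had 3979.8, 2748, 3054 and 3149.6 normalised counts in heterozygous fat body and 3404, 2784, 3028 and 3178 with ovaries. Labelled homozygous, these tissues had 5035, 3659, 4315 and 3649 and 4118, 3489.5, 3589.9 and 3532. Its tissue folds of -0.05 and -0.17 did not pass the threshold (adjusted p = 0.779 and 0.318).

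eIF4E-3 (arm 3L, 8229224 to 8230568), a family member that the testis of Drosophila needs for meiosis, was read in small numbers, nearly all in libraries with ovaries. The 4 heterozygous libraries with ovaries held 6, 7, 6 and 5 reads and those labelled homozygous 6, 4, 5 and 5. Heterozygous fat body held 0, 0, 1 and 0 reads and the fat body labelled homozygous 0, 0, 0 and 0. All 8 libraries with ovaries were above all 8 without. The ratio in heterozygotes, 24 reads against 1 after scaling, was 20.8 (95% interval 3.40 to 857, exact binomial, counting error only). For libraries labelled homozygous 20 reads against 0 gave a level at least 5.22-fold higher, with 3 reads allowed over the group of 4 fat body libraries. The exact permutation p was 0.0286 in each genotype (2-sided), the smallest that 4 against 4 libraries can give. With no minimum on low values limma called eIF4E-3 higher in both genotypes (adjusted p = 1.18e-05 and 8.20e-06), where 11.1% and 11.9% of 14401 genes were higher. Its fitted folds of 2.40 and 2.46 depend on the pseudocount of 1 and are no bound. Between genotypes the libraries with ovaries overlapped, at 24 and 20 reads in all.

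The other 4 also had few reads. eIF4E-6 had 1, 1, 0 and 0 reads in heterozygous fat body and 2, 3, 4 and 3 with ovaries. In the libraries labelled homozygous it had 0, 0, 2 and 5 and 1, 2, 2 and 6. Its tissues overlapped in the libraries labelled homozygous and did not in heterozygotes, where the ratio was 5.21 (95% interval 1.16 to 47.9, counting error only) and the adjusted p without a minimum was 0.0939. eIF4E-7 was read with ovaries alone, at 0, 1, 0 and 2 and 0, 3, 0 and 2 reads, while all 8 fat body libraries were at 0. eIF4E-4 had 0, 0, 0 and 0 and 0, 1, 0 and 0 reads in the heterozygous tissues and 1, 0, 0 and 0 and 1, 2, 0 and 0 in those labelled homozygous. eIF4E-5 had 0, 0, 0 and 1 and 0, 0, 1 and 0, then 0, 0, 0 and 0 and 0, 0, 0 and 3. Neither eIF4E-4, eIF4E-5 nor eIF4E-7 passed 0.05 by limma without a minimum. A library at 0 allows up to 3 reads, so differences of this size were not detectable at this depth.

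Markers of testis, given since several of these paralogues are known from there, summed to 320 to 671 normalised counts in heterozygous fat body and 286 to 531 with ovaries. Those labelled homozygous summed to 194 to 245 and 224 to 263. Of these 10 genes Mst84Da was at 0 in every library and 3 passed the minimum, of which mia was called higher with ovaries in both genotypes (2.05 and 1.99), as was eIF4E-3, and Mst87F and topi were not called. Their part in the reads of eIF4E-3 was not tested.

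The comparison of genotypes asks what differs in animals labelled homozygous for delta1. Initiation factors tended to higher values in the libraries labelled homozygous, and limma called 0 of the 24 in either tissue without a replicate block. In fat body 21 of 24 log2 folds were above 0, with a median of 0.24 against 0.00 over all genes. In fat body with ovaries 19 of 24 were above 0, with a median of 0.14 against 0.00. Of all genes limma called 2.29% higher and 3.11% lower in fat body, and 0.92% and 1.19% with ovaries. At an unadjusted p under 0.05, 11 of the 24 were counted in fat body, against 19.3% of all genes, and 3 with ovaries, against 13.5%. DESeq2 called 5 higher in fat body (eIF3-S8, eIF-5A, eIF5B, eIF4G and eIF5, against 4.81% of all genes) and 0 with ovaries (2.52%), and edgeR called 0 in both (1.64% and 0.818%). These comparisons share no library with each other but take each gene's spread from the same fit, and they share all their libraries with the tissue comparisons above. At equal totals 18 of the 24 folds were above 0 in each tissue, with medians of 0.14 in fat body and 0.08 with ovaries against -0.11 and -0.07 over all genes. The sum of 7 muscle markers moved with genotype, at 409 to 737 in heterozygous fat body and 61.4 to 534 in that labelled homozygous, and at 454 to 499.8 and 61.6 to 149.6 with ovaries. Of the 6 tested, Mlc2 was called lower in both tissues (-3.78 and -4.06) and the others were not called, with 4 of the 6 folds above 0 in fat body and 2 with ovaries. The part of these in the folds of the initiation factors was not tested.

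Equal replicate numbers were taken to pair the libraries in both genotype comparisons, since libraries of the same number deviated from their group means together. The correlations across genes ran from 0.213 to 0.676 in fat body and from 0.173 to 0.417 with ovaries. With ovaries, heterozygous replicate 3 correlated more with another replicate number labelled homozygous (0.325) than with its own (0.173), so the pairing is less certain there. The block gave each replicate number the same effect in all 16 libraries. It therefore also tied together the heterozygous tissues, which equal numbers did not pair by their correlations. With the number as a block limma called 12 of the 24 higher in fat body labelled homozygous, against 7.67% of all genes, and 0 lower. They were all 3 subunits of eIF2, eIF2B-gamma, eIF2B-delta, eIF5, eIF-4E, eIF4G, eIF-4a, eIF-3p40, eIF5B and eIF6. With ovaries it called 5 higher, against 4.44% of all genes, and 0 lower. They were eIF-2beta, eIF5, eIF-4E, eIF4G and eIF-4a. The folds of these 12 and 5 genes were above 0 under every setting tried, equal totals included. The same held in both tissues for members not called with the block, such as eIF-5A, eIF2B-beta and eIF3-S10. The settings reuse the same libraries, so this does not set the called genes apart.

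**Figure D4:**
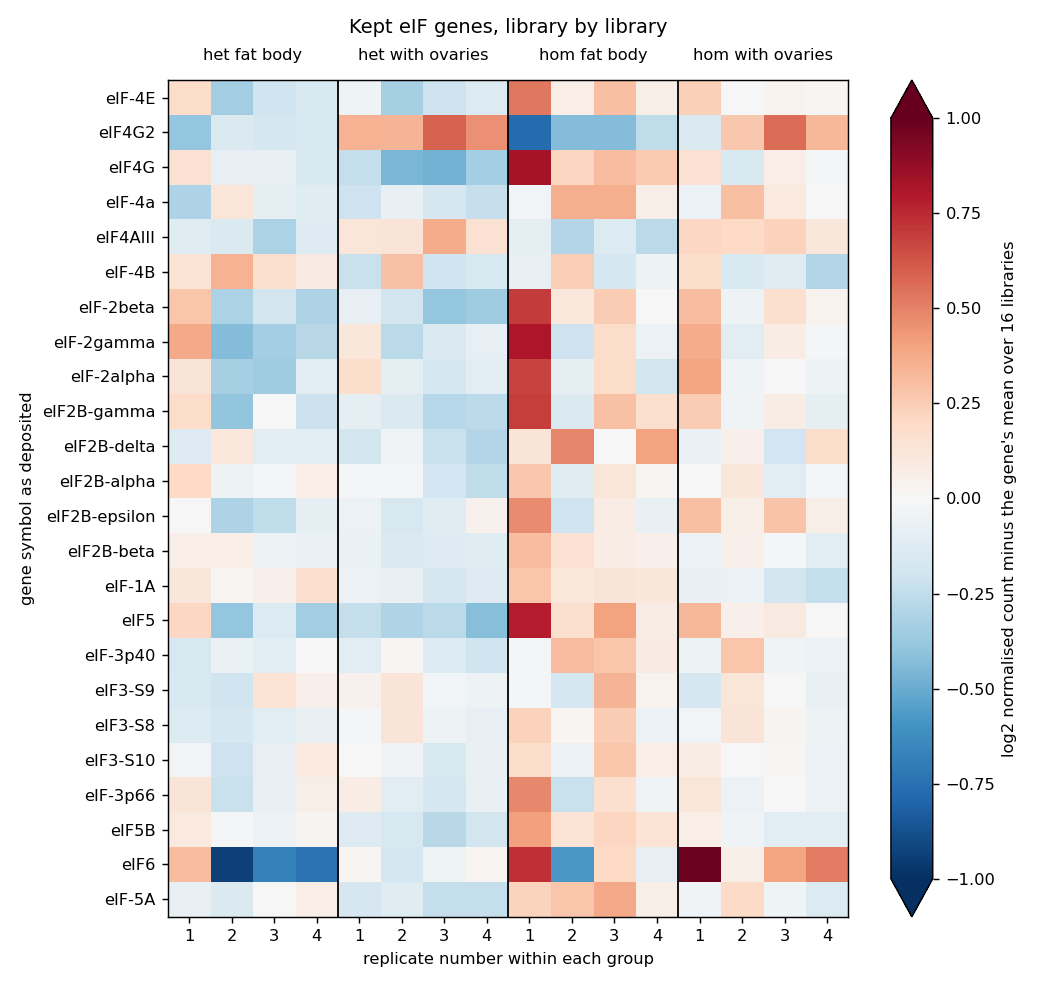
Log2 normalised count of each kept eIF gene in each library, less that gene's mean over the 16 libraries; columns are libraries grouped by genotype and tissue with their replicate number, and rows are ordered by complex. Red is above and blue below the mean, and colours end at 1 log2 unit. The fat body labelled homozygous is red in most rows, and in many of them most strongly in replicate 1. There eIF4G2 and eIF4AIII are blue throughout and eIF-4B mostly.

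The 3 subunits of eIF2, which carries initiator tRNA, are given first. eIF-2beta had 4288, 2842, 3110.5 and 2848 normalised counts in heterozygous fat body and 5746, 3809, 4222 and 3554 in that labelled homozygous. With ovaries it had 3348, 3121, 2706 and 2769 and 4369, 3416, 3958 and 3626. The fat body groups overlapped, since heterozygous replicate 1 lay above 3 of the 4 libraries labelled homozygous, while with ovaries they did not. The log2 fold was 0.40 ± 0.16 in fat body (adjusted p = 0.166, and 0.00999 with the block) and 0.36 ± 0.16 with ovaries (0.331, and 0.0250 with the block). eIF-2alpha, whose protein is phosphorylated under stress, gave 0.31 ± 0.17 in fat body (0.0449 with the block) and eIF-2gamma, the GTP-binding subunit, 0.35 ± 0.21 (0.0348 with the block). In fat body eIF-2alpha had 1409, 1020.2, 1006 and 1187 normalised counts in heterozygotes and 2051, 1206, 1458 and 1132 labelled homozygous. For eIF-2gamma these were 1742, 992, 1063 and 1105 and 2354, 1160.3, 1527 and 1289.7. Both groups overlapped for each gene, and replicate 1 was the highest library in all of them. With ovaries they gave 0.12 and 0.17, past no threshold. eIF-2gamma shares 15.98% of its exon bases with Su(var)3-9 on the same strand, and eIF-2alpha 12.6% with rngo on the other.

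eIF5 (arm X, 15987008 to 15991974), which activates the GTPase of eIF2, had the largest fold of the genes called with the block in fat body apart from eIF6. It had 3458, 2282, 2717 and 2348 in heterozygous fat body and 5154, 3346, 3961 and 3156 in that labelled homozygous. With ovaries it had 2532, 2428, 2479 and 2226 and 3761, 3100.0, 3177 and 3002. The groups did not overlap with ovaries, and in fat body heterozygous replicate 1 lay within the other group. The log2 folds were 0.52 ± 0.15 (adjusted p = 0.0612, and 0.00205 with the block) and 0.43 ± 0.15 (0.199, and 0.0113 with the block). In the annotation 80.8% of its exon bases are also those of CG46312 on the same strand, which is no row of the table used here, so the count of eIF5 is uncertain.

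In the cap-binding complex eIF4G was above in all 4 libraries labelled homozygous in both tissues, with the counts given above. Its log2 folds were 0.45 ± 0.13 (adjusted p = 0.0572, and 0.00397 with the block) and 0.39 ± 0.13 (0.158, and 0.0131 with the block). Without replicate 1 of all 4 groups, a setting chosen after seeing the data, eIF4G passed the threshold in both tissues without a block (adjusted p = 0.0203 and 0.0287). eIF-4E gave 0.37 ± 0.12 (0.00433 with the block) and 0.25 ± 0.12 (0.0420 with the block). The helicase gene eIF-4a had 16065, 21590.5, 18708 and 18284 in heterozygous fat body and 19528, 25578, 25581 and 20697 in that labelled homozygous. With ovaries it had 17270.4, 18914, 17719 and 16927 and 19099, 24515, 21277 and 19842. Its folds were 0.29 ± 0.12 (0.0178 with the block) and 0.25 ± 0.12 (0.0452 with the block).

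eIF6, which binds the large ribosomal subunit, varied most widely between libraries among the 24. It had 486, 205, 245 and 235 in heterozygous fat body and 650.2, 262, 449 and 370.3 in that labelled homozygous. With ovaries it had 397, 347, 379 and 397 and 774, 408, 516 and 559. With ovaries the groups did not overlap, and in fat body replicate 1 was the highest library of both. The log2 folds were 0.57 ± 0.28 in fat body (adjusted p = 0.288, and 0.0312 with the block) and 0.53 ± 0.28 with ovaries (0.463, and 0.0634 with the block).

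Of the genes called with the block in fat body, 3 more overlapped between genotypes and were higher in 4 of 4 pairs. eIF-3p40 had 2737, 2922, 2831 and 3057 in heterozygous fat body and 3039.8, 3789, 3715 and 3243 in that labelled homozygous (0.25 ± 0.09, adjusted p = 0.0352 with the block). eIF2B-gamma, a subunit of the catalytic part of eIF2B, had 405, 271, 355 and 306 and 577, 323, 438 and 398 (0.36 ± 0.16, 0.0373 with the block). eIF2B-delta, a regulatory subunit, had 565, 666, 574 and 573 and 678, 868, 617 and 818 (0.31 ± 0.11, 0.0261 with the block).

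Folds at or below 0 were few. In fat body they were those of eIF4G2, eIF-4B and eIF4AIII, and with ovaries also those of eIF3-S9 and eIF-1A. eIF4G2 was lower in the library labelled homozygous in all 4 pairs of equal number in both tissues, with log2 folds of -0.26 ± 0.14 and -0.18 ± 0.14 that passed no threshold (adjusted p = 0.328 and 0.671, and 0.0726 and 0.269 with the block). eIF4AIII gave -0.02 and -0.01. eIF-4B had 248 to 296 normalised counts in heterozygous fat body and 207 to 277 in that labelled homozygous, a log2 fold of -0.20 ± 0.13. The eIF3 subunit genes eIF3-S9 and eIF-3p66 gave 0.08 and 0.13 in fat body. eIF-3p66 had 3351, 2617, 2889 and 3183 normalised counts in heterozygous fat body and 4261, 2614, 3426 and 2991 in that labelled homozygous, and 3220.3, 2848, 2717 and 2900.2 and 3327, 2943, 3056 and 2940.0 with ovaries. Its paralogue CG4810 (eIF3d2) had at most 2 reads in a library. Of the eIF2B subunits, eIF2B-beta and eIF2B-epsilon had folds of 0.14 and 0.23 in fat body, and eIF2B-alpha, a regulatory subunit, of 0.02, none called.

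Libraries were also counted rather than fitted, by rules chosen after seeing the data. With ovaries, all 4 libraries labelled homozygous lay above all 4 heterozygous ones in 9 of the 24 genes, against 5.89% of all genes. In fat body this held for 3 (eIF4G, eIF5B and eIF3-S8), against 4.77%. The opposite held for 0 genes in both. The library labelled homozygous was the higher one in all 4 pairs of equal number for 18 of 24 genes with ovaries (18.9% of all genes) and for 14 of 24 in fat body (17.9%). Summed, the 29 genes took 0.309% to 0.331% of heterozygous fat body and 0.334% to 0.406% of that labelled homozygous. With ovaries they took 0.389% to 0.408% and 0.413% to 0.452%. The genotypes did not overlap in either tissue. Genes with most counts weigh most in this sum. These were eIF-4a, eIF-5A and eIF4G, with means of 20100, 18819 and 10298 normalised counts over the 16 libraries. Genes on the third chromosome, which the balancer covers in heterozygotes, made up 11 of the 24. With the block 4 of these 11 and 8 of the other 13 were called higher in fat body, against 7.67% of all genes on any chromosome. Shares of all genes by chromosome were not computed, and a part of the balancer was not tested.

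Replicate 1 stood apart in many of these genes. It was the highest library in all 4 groups for 10 of the 24, against 9.02% of all genes. They were the 3 subunits of eIF2, eIF5, eIF-4E, eIF4G, eIF5B, eIF6, eIF2B-gamma and eIF-3p66. eIF6 in replicate 1 was on average 1.59 times the mean of the other replicates of its group, eIF-2gamma 1.47 times and eIF-2alpha 1.37 times. In 7 genes it was the highest in no group, and in eIF4G2 it was the lowest of its group in 3 of the groups, at 0.80 times the others on average. The sources used here do not say what the replicate numbers stand for.

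Setting the scaffold genes, and then the helicase genes, against each other within a library needs no scaling between libraries. These ratios were chosen after seeing the data. Per 100 normalised counts of eIF4G there were 4.13, 5.76, 5.67 and 6.02 of eIF4G2 in heterozygous fat body and 9.05, 10.4, 12.5 and 10.4 with ovaries. In the libraries labelled homozygous there were 1.97, 3.84, 3.59 and 4.20 and 4.90, 8.07, 8.49 and 7.64. The ratio was higher with ovaries in every library than in any fat body library of its genotype, at 5.40 ± 0.85 and 10.6 ± 1.44 in heterozygotes (SD, n = 4) and 3.40 ± 0.99 and 7.27 ± 1.62 in those labelled homozygous. That is a factor of 1.97 and 2.17 (exact permutation p = 0.0286 each, 2-sided, 0.0571 adjusted over the 8 tests of ratios). Each gene alone already separated the tissues, eIF4G2 upward and eIF4G downward. The p of their ratio between tissues could therefore take no other value and is no further evidence. Between genotypes this ratio was lower in the library labelled homozygous in 4 of 4 pairs in both tissues. The factor was 0.675 with ovaries, where the groups did not overlap (exact permutation p = 0.0286, 0.0571 adjusted), and 0.613 in fat body, where they did (exact permutation p = 0.0571, 0.0653 adjusted). The smallest p that 4 against 4 libraries allow is 0.0286, so a smaller value was not possible.

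For eIF4AIII per 100 of eIF-4a the values were 3.23, 2.36, 2.41 and 2.81 in heterozygous fat body and 3.54, 3.25, 4.11 and 3.70 with ovaries. Labelled homozygous, they were 2.69, 1.79, 1.99992 and 2.26 and 3.40, 2.63, 3.10 and 3.08. The tissues did not overlap in heterozygotes (factor 1.36, exact permutation p = 0.0286, 0.0571 adjusted) and did in the others (1.41, exact permutation p = 0.0571, 0.0653 adjusted). Between genotypes the ratio was lower in the library labelled homozygous in 4 of 4 pairs in each tissue, by factors of 0.836 with ovaries and 0.806 in fat body (exact permutation p = 0.0571 and 0.114). A ratio shows unequal change and not which of its genes changed.

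**Figure D5:**
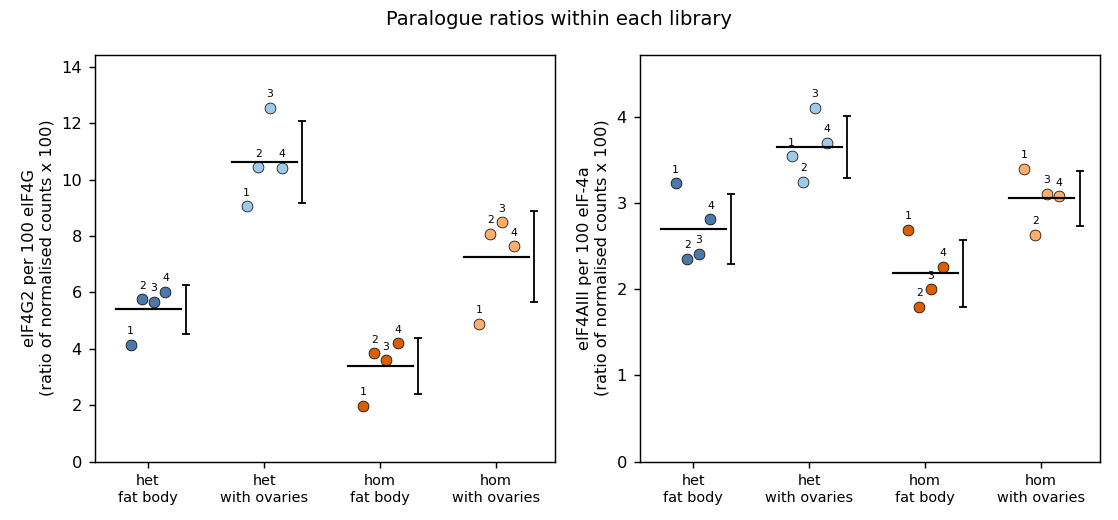
Normalised counts of eIF4G2 per 100 of eIF4G (left) and of eIF4AIII per 100 of eIF-4a (right) in each library, numbered by replicate; bars are means and whiskers the SD of 4 libraries. Both ratios are higher with ovaries, and eIF4G2 per 100 of eIF4G is lowest in the fat body labelled homozygous, at 1.97 in replicate 1.

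The tissue difference of the initiation factors was not shown to depend on genotype. In the interaction limma called 0 of the 24 (0 at an unadjusted p under 0.05), against 0.0511% of all genes in either direction. Of the 24 interaction folds 5 were above 0, with a median of -0.08 against -0.01 over all genes. The extremes were eIF3-S8 at -0.21 ± 0.12 and eIF-4B at 0.17 ± 0.19.

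The genes listed under older names were compared in the same way. Of the 13 tested, 13 had a fold above 0 in fat body labelled homozygous (median 0.22) and 12 with ovaries (median 0.16), with 0 called. With the block 5 were higher in fat body, against 7.67% of all genes, and 1 with ovaries, against 4.44%. Adam (eIF3j) was in both at 0.39 ± 0.14 and 0.36 ± 0.14 (adjusted p = 0.00119 and 0.00308 with the block). CG17737 (eIF1), the partner of eIF-1A in start codon choice, was lower with ovaries in the libraries labelled homozygous (-0.25 ± 0.09, adjusted p = 0.0412) and not past the threshold in heterozygotes (-0.14 ± 0.09, adjusted p = 0.226). 4EHP (eIF4EHP), a cap-binding repressor, had folds of 0.29 and 0.18 with ovaries, neither called without the block and the heterozygous one called with it (adjusted p = 0.0228). Adam was called lower with ovaries with the block in both genotypes (-0.27 and -0.30, adjusted p = 0.00267 and 0.00120). The paralogues CG10881 (eIF3g2), CG8335 (eIF3f2), CG4810 (eIF3d2) and CG1340 (eIF4H2) were under the minimum. CG10881 had 0 to 8 reads a library and overlapped between tissues.

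Regulators of these factors included genes called between genotypes. Of 25 tested genes of other initiation factors and their control, 4 of which also carry an eIF symbol, limma called 0 higher and 2 lower in each tissue, against the shares of all genes given above. Pdcd4, which encodes an inhibitor of eIF4A, had 1816, 2344, 2451 and 2507 normalised counts in heterozygous fat body and 1181, 1418, 1324 and 1158 in that labelled homozygous. With ovaries it had 2472, 3338, 2855 and 2667 and 1571, 2358, 1980.2 and 1657. The fat body groups did not overlap, and those with ovaries did not either. The log2 folds were -0.84 ± 0.14 (adjusted p = 0.00283) and -0.59 ± 0.14 (adjusted p = 0.0427). Lk6, the gene of the kinase that phosphorylates eIF4E, had 3813, 4478, 4199 and 4397 and 3145, 3222, 3048 and 2969 in the fat body groups. With ovaries it had 3943, 4753, 4109 and 4122 and 3057, 3578, 3112 and 3002. Again the groups were apart, with folds of -0.45 ± 0.08 (adjusted p = 0.00538) and -0.41 ± 0.08 (adjusted p = 0.0174). Lk6 lies on arm 3R and Pdcd4 on the X. With ovaries the list had 0 higher and 4 lower genes in heterozygotes, against 18.6% and 10.7% of all genes. It had 1 higher and 5 lower in the libraries labelled homozygous, against 19.8% and 13.2%, the higher one being Pdcd4 (0.56 ± 0.14, adjusted p = 0.00682). Lower in both were pAbp, the poly(A)-binding protein gene (-0.31 ± 0.09 and -0.42 ± 0.09), crc, the ATF4 gene (-0.41 ± 0.10 and -0.46 ± 0.10), the eIF4E-binding protein gene mxt (-0.30 ± 0.07 and -0.27 ± 0.07) and CG5941 (-0.32 ± 0.10 and -0.29 ± 0.10). At equal totals the median of all genes shifts upward as given above.

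The rest of the translation machinery was counted in the same way between genotypes. Of 87 tested cytosolic ribosomal protein genes 82 had a fold above 0 in fat body labelled homozygous (median 0.32, 25 higher and 1 lower) and 84 with ovaries (median 0.26, 3 higher and 0 lower). With the block 73 and 46 were higher. Of 12 elongation, termination and recycling factors 10 and 9 were above 0, with 1 called, the termination factor gene eRF1 in fat body (0.40 ± 0.07, adjusted p = 0.00465). Of 20 cytosolic aminoacyl-tRNA synthetases 16 were above 0 in each tissue (median 0.33 and 0.24), and 1 was called in fat body, Aats-tyr at 0.34 ± 0.09 (adjusted p = 0.0495). Of 8 mitochondrial translation factors 3 and 6 were above 0 (median -0.06 and 0.01), with 0 called and a smallest adjusted p of 0.233 and 0.110. All 13 genes of the nucleolus and rRNA synthesis were above 0 in both tissues (median 0.74 and 0.40) with 0 called. With ovaries 13 of the 13 were above 0 in heterozygotes (median 1.41, 3 called higher) and 12 in the libraries labelled homozygous (median 1.01, 1 called higher). The Myc gene dm was called in both (1.84 ± 0.35 and 1.28 ± 0.35, adjusted p = 0.000996 and 0.0107).

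How reads were assigned limits some of these values. Of the 24 genes 4 share exon bases with a gene on the same strand and 11 with one on the opposite strand, and the sources used here do not say whether strand was used in counting. The largest such overlaps were those of eIF5, eIF-3p40 (16.8% with senju on the other strand), eIF-2gamma and eIF-2alpha. The counts of these genes are uncertain to that extent.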

How the data were processed

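RNA from larval fat body, with or without ovaries, was sequenced from 2 genotypes with 4 libraries each. Reads were processed with Trimmomatic 0.36, STAR 2.5.2b, Subread 1.5.0p3 (featureCounts) and the genome build dm6, as named in the submitters' processing notes. The sources used here do not name the annotation, the strand setting or the treatment of multiply mapped reads. The deposited values are a signal, gene counts that the authors divided by a size factor per library, as the steps between low values show. Whole reads could be recovered for 100% of values within a tolerance of 1e-06. Library totals were 19022106 to 32755588 reads.

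log2(value + 1) was fitted with limma 3.58.1 in R 4.3.3 (trend, empirical Bayes), with 1 mean per group over 16 libraries, for 7824 genes with a mean of at least 10. Fold changes are on that scale, which understates those of low genes. P-values are 2-sided and adjusted after Benjamini and Hochberg over all genes tested, with a threshold of 0.05. Groups followed the titles. edgeR 4.0.16 and DESeq2 1.42.0 were run on the recovered reads as alternatives, and the main test was checked on simulated data. Other settings were pseudocounts of 0.5 and 5, no minimum or one of 50, TMM scaling, equal totals, fits of 2 groups, a replicate block and leaving out libraries. Leaving out replicate 1 of all groups, the paralogue ratios and the counts of libraries were chosen after seeing the data. Exact binomial intervals at 95% and the 3 reads that a count of 0 allows cover counting error only.

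Equal replicate numbers were taken to pair libraries where every pair's deviations from the group means correlated above 0.1. This rule makes no comparison with libraries of unequal number, where heterozygous replicate 3 with ovaries reached 0.325 between genotypes. The correlations of equal numbers were 0.284, 0.015, 0.040 and 0.225 between tissues in heterozygotes. They were 0.610, 0.424, 0.198 and 0.476 between tissues in the libraries labelled homozygous, and between genotypes 0.676, 0.385, 0.291 and 0.213 for fat body and 0.253, 0.417, 0.173 and 0.415 for fat body with ovaries.

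The libraries left out together as standing apart were heterozygous fat body replicate 2 and fat body replicate 1 labelled homozygous. Present symbols and coordinates come from RefSeq and Ensembl 115 tables of Release 6. The members, gene lists and tests were chosen with earlier results of these data known. Values in every library are given for members past the threshold between genotypes, the 8 with the largest called folds in each tissue comparison, paralogues, and members under the minimum with a read. Values are also given for members called with the replicate block, a choice made after seeing them. From each list at most 4 genes with the smallest p are named.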

Additional observations from a re-analysis of the deposited data

Results flagged for a closer look

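Each group of 4 libraries was searched for 1 library far from the other 3, by Dixon's gap test at 95%. Of 96 groups, 12 had such a library, where chance gives about 1 in 20 for a single group. Groups of different genes are made of the same libraries and are not independent. The 12 of 96 can therefore not be set against that rate, and an excess over chance was not tested.

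Replicate 1 stood apart in 7 of the 12. In heterozygous fat body it was high for eIF6 (486 normalised counts against 205 to 245) and eIF-2gamma (1742 against 992 to 1105), and low for eIF4G2 (461 against 537 to 546). In the fat body labelled homozygous it was high for eIF4G (17906 against 11654 to 12453) and eIF-1A (5357 against 4750.4 to 4836). With ovaries, in the libraries labelled homozygous, it was high for eIF-4E (4118 against 3489.5 to 3589.9) and eIF-2alpha (1691 against 1239 to 1281).

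Replicate 2 was high for eIF-3p40 in the libraries with ovaries labelled homozygous (3708 against 2937 to 2983). It was high for eIF2B-delta in heterozygous fat body (666 against 565 to 574) and for eIF-4B in heterozygous fat body with ovaries (285 against 200.1 to 208). Replicate 3 of the heterozygotes was low for eIF4AIII in fat body (451 against 509 to 519) and high with ovaries (727 against 611 to 626), so that this gene's tissue difference is widest there.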

How the results depend on the processing

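Among 28 other settings, eIF4G2 and eIF4AIII were called higher with ovaries in both genotypes under all. The count of members lower with ovaries in heterozygotes, 1 as reported, was 0 at equal totals, with TMM scaling, with no minimum and with edgeR. It was 3 with DESeq2, with 2 groups only, with a replicate block, without both libraries that stand apart and without all replicates 1, and 0 to 3 without single libraries (3 without fat body replicate 1 labelled homozygous). In the libraries labelled homozygous the 3 lower members became 0 at equal totals, 5 with DESeq2, 1 with 2 groups only and 7 with the replicate block, and 2 to 4 without single libraries. Among these other settings, the share of all genes called lower is given for the replicate block alone (21.7% in heterozygotes and 23.9% labelled homozygous). At equal totals 13 members were higher in each genotype, their medians moved to 0.33 and 0.32, and the folds of eIF-1A turned to 0.19 and 0.14, of eIF4G to 0.0376 and of eIF5B to 0.16 in the libraries labelled homozygous. Scaling to totals shifted the median of all genes upward as well. Which of the scalings is nearer to the true levels was not tested.

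Between genotypes 0 members were called higher as reported. In fat body the count was 5 with DESeq2 (4.81% of all genes), 12 with the replicate block (7.67%) and 4 without all replicates 1. It ran from 0 to 4 without single libraries, with 4 without heterozygous fat body replicate 1 and 1 without replicate 2 or 4 of the fat body labelled homozygous. With ovaries it was 1 with 2 groups only, 5 with the replicate block, 1 without both libraries that stand apart, 1 without all replicates 1, and 0 to 1 without single libraries, with eIF4G called without fat body replicate 1 labelled homozygous. Shares of all genes were not computed for the fits of 2 groups or with libraries left out, so those counts have no share beside them. The causes were not tested. The eIF-1A call in heterozygotes was lost under 12 settings: TMM scaling, no minimum, edgeR, and without heterozygous fat body replicate 1, 3 or 4, any heterozygous library with ovaries, or replicate 3 of either tissue labelled homozygous. At equal totals it was reversed, with eIF-1A called higher by limma (adjusted p = 0.0457). The call of eIF4G in the libraries labelled homozygous was lost under 7: TMM scaling, no minimum, 2 groups only, without fat body replicate 1 or replicate 2 or 4 with ovaries, and without both libraries that stand apart. That of eIF5B there was lost with 2 groups only (adjusted p = 0.0764). The pairing changed no other call of a member than those given with the results. The interaction was not run with 2 groups only. Depth limits the 5 rarely read eIF4E genes.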
